A study of Mus musculus with 8 samples.

Results

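Ttr, Enpp2, Kl, Htr2c, Prlr, Folr1, Aqp1, Slc4a5, Clic6 and Otx2 are genes by which the epithelium of the choroid plexus is commonly recognised, and they were followed here through single nuclei of injured mouse forebrain. These 10 genes were taken by their symbols from the 54232 genes of the count matrices. The rule that goes with them takes as choroid plexus any nucleus in which at least 2 of the 9 genes other than Ttr had a unique molecular identifier (UMI, 1 captured RNA molecule), and asks how each gene's level varied between libraries, in these nuclei and as background in other cell types. The tissue was a cube of forebrain beside the lesion, 2 mm on a side, frozen after dissection from male Swiss Webster mice aged 10 weeks, with no genetic change named. There were 4 groups of 2 libraries: control surgery, BCAS, TBI (traumatic brain injury), and both surgeries in the same mice (BCAS+TBI). BCAS is not spelled out in the labels, though the title of the study speaks of cerebral hypoperfusion. The labels call the 2 libraries of a group biological replicates, but they do not state how many mice went into a library or the time from surgery to collection, and the tissue is labelled brain, with no word of choroid plexus.

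The choroid plexus is a folded sheet of epithelium around vessels inside the brain ventricles. It makes most of the cerebrospinal fluid by moving ions and water across its cells, it secretes carrier proteins and signals into that fluid, and it takes up vitamins and hormones from blood. Its epithelium arises from the same neuroepithelium as the ependyma, the ciliated layer of the ventricle wall, and the transcription factor Otx2 is needed for its formation.

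By Ensembl gene ID, the genes lie on GRCm38 as follows (GENCODE vM21, all protein coding). Of the secreted products, Ttr (transthyretin, a carrier of thyroid hormone) is at chr18:20665280-20674321, Enpp2 (autotaxin, which makes lysophosphatidic acid) at chr15:54838901-54952892, and Kl (Klotho, an ageing-related protein that is also shed into the fluid) at chr5:150952607-150993817. The receptors are Htr2c (serotonin receptor 2C) at chrX:146962513-147197277, Prlr (prolactin receptor) at chr15:10177238-10349180 and Folr1 (folate receptor alpha) at chr7:101858331-101870788. The transport genes are Aqp1 (a water channel) at chr6:55336432-55348555, Slc4a5 (a sodium bicarbonate cotransporter) at chr6:83219828-83304945 and Clic6 (a chloride intracellular channel protein) at chr16:92485736-92541243. Otx2 is at chr14:48657677-48673819.

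After filtering, 45560 nuclei remained, 5049 to 7157 in a library. Total UMIs ran from 28118725 to 56135192 and split the libraries into 2 sets of 4 at their largest gap. Set 1 (control 1, BCAS 1, TBI 1 and BCAS+TBI 2) held 28118725 to 33363564 UMIs, and set 2 (the other libraries) held 42651388 to 56135192. Each set has 1 library of every group, and mitochondrial UMIs were 1.20% to 2.77% in set 1 against 0.511% to 1.04% in set 2. A barcode was shared with another library by 415 nuclei, 5 of them choroid plexus-like, with 3 to 14 shared in each of the 28 pairs of libraries.

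The rule took 6366 nuclei, and few of them looked like choroid plexus. Clusters were made without the 10 genes and named from 12 other markers of the plexus epithelium, among them Tmem72, Otx2os1, Kcnj13 and Cldn2. This gave 1 cluster of 345 choroid plexus-like nuclei, and 344 of these met the rule, which is 5.40% of the nuclei the rule took. The rest of the rule's nuclei were 3019 in unnamed clusters, 2066 excitatory neuron-like, 357 inhibitory neuron-like, 243 striatal projection neuron-like and smaller numbers of other classes. Among the 6022 that were not choroid plexus-like, 3005 met the rule by Htr2c with Enpp2 alone and 876 by Htr2c with Prlr alone. Both pairs are genes that the neuron-like classes also carried.

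**Figure D1:**
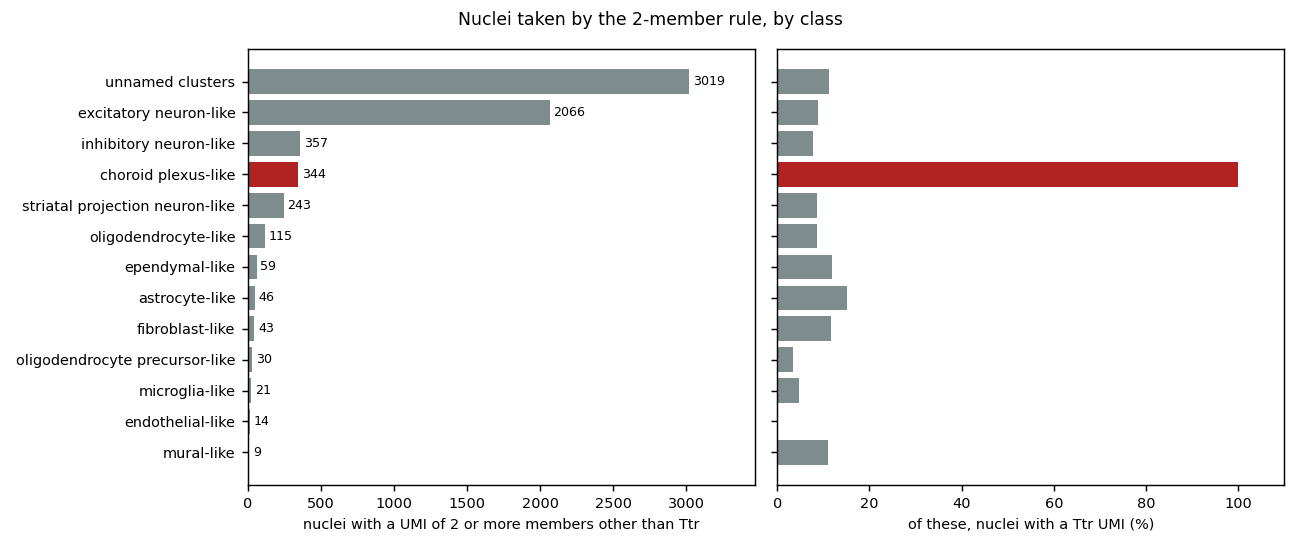
The bars at left count the nuclei that the 2-member rule took in each class, and the bars at right give the percentage of those nuclei with a Ttr UMI. The 344 choroid plexus-like nuclei all had Ttr UMIs, while no other class passed 15.2%.

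Tmem72 and Otx2os1 are among the 12 markers that named the cluster, so their difference between both kinds of nuclei follows from the naming. Tmem72, a membrane protein of the plexus, had a UMI in 92.2% of the 344 choroid plexus-like nuclei taken by the rule and in 1.13% of the other 6022. Otx2os1, the transcript antisense to Otx2, had one in 96.8% against 8.09%. These 2 were the most often seen of the 12, and the least often seen was Wfdc2, in 8.43% against 0.515%. Ttr, which neither the rule nor the clusters used, had one in 100% against 10.0%. The other nuclei were the deeper ones, with a median of 8022 UMIs against 2898.5. Of the 9 genes, the choroid plexus-like nuclei showed a median of 6 per nucleus. In 308 of the 345 at least 5 were seen, against 3 of 17942 excitatory neuron-like nuclei and 58 of 11528 nuclei in unnamed clusters. Outside the cluster, 13 nuclei showed 7 of the 9 genes and 7 showed 8. Whether these are choroid plexus nuclei that the cluster missed was not tested. Levels in choroid plexus are given for the 345 nuclei of the marker-named cluster, and the rule's nuclei are described with the tests.

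Choroid plexus-like nuclei numbered 41 and 27 in control 1 and 2, 29 and 54 in BCAS, 60 and 51 in TBI, and 37 and 46 in BCAS+TBI. Their share of a library's nuclei was lowest in control 2, at 0.484% (Wilson 95% interval 0.333% to 0.704%), and highest in TBI 1, at 1.19% (0.924% to 1.53%). The share was 0.862% ± 0.240 (SD, n = 4) with TBI and 0.662% ± 0.167 (SD, n = 4) without it, a difference that an exact two-sided permutation test over 70 assignments gave p = 0.229 (adjusted p = 0.457 over both surgeries). With BCAS it was 0.737% ± 0.156 (SD, n = 4) and without it 0.787% ± 0.294 (SD, n = 4), with an exact permutation p and adjusted p of 0.829. The smallest p this design allows is 0.0286. Within sets, the means with and without TBI were 1.04% and 0.662% in set 1, and 0.683% and 0.662% in set 2. Those with and without BCAS were 0.727% and 0.976% in set 1, and 0.747% and 0.598% in set 2, so the sign for BCAS differed between the sets. The rule's nuclei were 9.26% to 19.9% of a library.

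**Figure D2:**
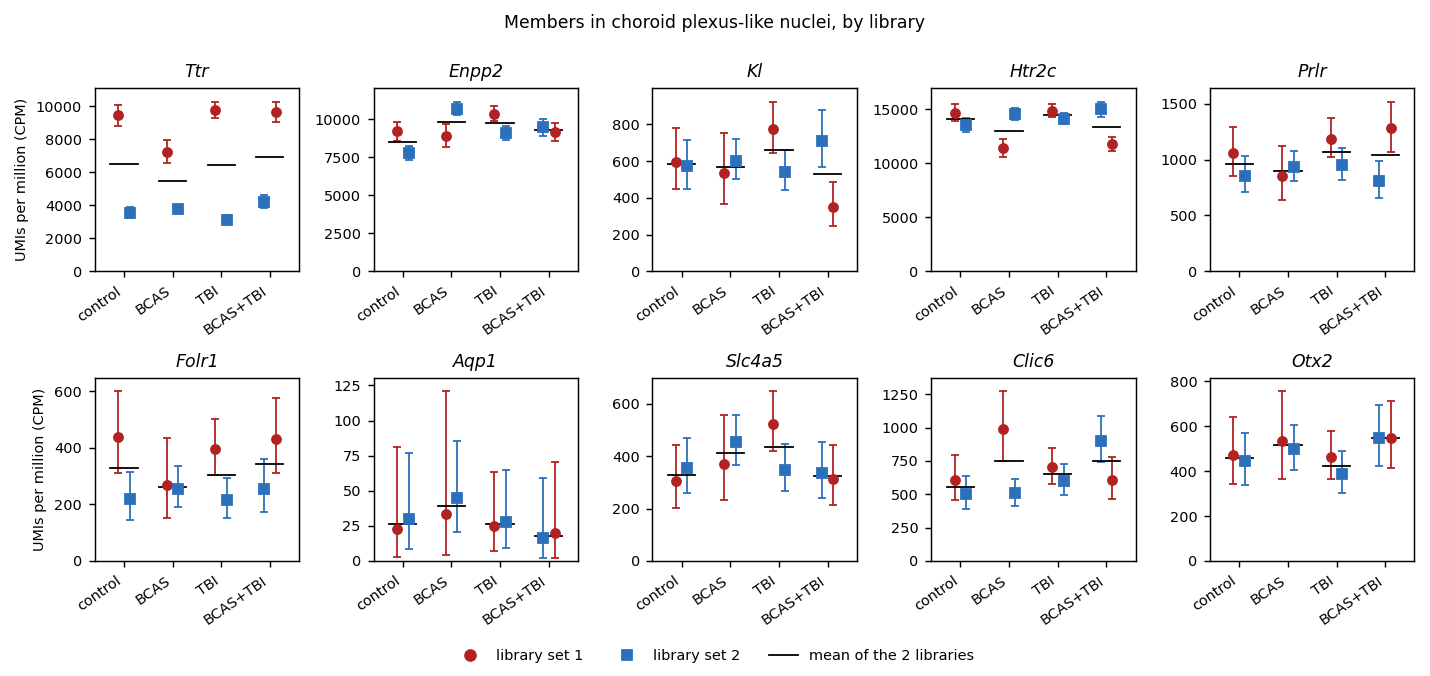
Each panel shows 1 gene, with its UMIs per 1000000 (CPM) in the choroid plexus-like nuclei of each library by group; points carry exact Poisson 95% intervals, black lines are the means of 2 libraries, and colour and shape mark the library set. Ttr falls into 2 levels by set inside every group, while Htr2c, Enpp2 and Otx2 have the smallest relative spread across all 8 libraries.

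Ttr is given first among the secreted products. Its level, in UMIs per 1000000 UMIs of a library's choroid plexus-like nuclei (CPM), was 9433 in control 1 and 3532 in control 2, and 7211 in BCAS 1 and 3763 in BCAS 2. It was 9735 in TBI 1 and 3126 in TBI 2, and 4216 in BCAS+TBI 1 and 9651 in BCAS+TBI 2. Every choroid plexus-like nucleus in every library had a Ttr UMI, against 8.46% of excitatory neuron-like nuclei, at median depths of 2898 and 6394.5 UMIs. Group means lay between 5487 ± 2438 (SD, n = 2) in BCAS and 6933 ± 3843 (SD, n = 2) in BCAS+TBI, so the groups overlapped almost fully. The level followed the library set: the 4 libraries of set 1 held 7211 to 9735 CPM and the 4 of set 2 held 3126 to 4216, with no overlap.

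A comparison of set 2 with set 1, with the group as a term, was added for this reason (edgeR's quasi-likelihood test, two-sided, with Benjamini-Hochberg adjustment over the 3882 genes tested in these nuclei). Ttr was lower in set 2 by a log2 fold change of -1.35 (SE 0.17, adjusted p = 1.95e-08). Folr1 was lower by -0.77 (SE 0.20, adjusted p = 0.00595), a call that was lost with DESeq2 (adjusted p = 0.261) and with doublets kept (adjusted p = 0.0789). It was also lost without control 1, control 2, TBI 1, TBI 2 or BCAS+TBI 1, where log2 values lay between -0.70 and -0.64, with edgeR's adjusted p from 0.0517 to 0.109. Of the 9 genes tested these 2 were called lower, beside 6.16% of all genes tested. The others had log2 values from -0.35 for Prlr (adjusted p = 0.193) to 0.08 for Htr2c (adjusted p = 0.851). Ttr was called under each alternative run for this comparison, with values from -1.47 to -1.20.

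Some other measures moved with the sets inside these nuclei, while the marker lists of other classes went in both directions. Mitochondrial UMIs were 0.783% to 1.32% of the choroid plexus-like total in set 1 and 0.290% to 0.611% in set 2, and the median UMIs per nucleus were 1852 to 2673.5 against 3272 to 3887. The summed level of 7 microglial markers was 234 to 529 CPM in set 1, with 1 to 4 of the 7 at 0, and 105 to 270 CPM in set 2, with 2 to 5 at 0. It was 2871 to 4594 CPM in microglia-like nuclei of the same libraries. The 7 oligodendrocyte markers were at 293 to 1216 CPM in set 1 and 164 to 361 CPM in set 2, with 0 to 3 of the 7 at 0, against 17706 to 24786 CPM in oligodendrocyte-like nuclei. The 7 mural markers were at 33.5 to 90.1 against 22.5 to 40.9 CPM, with 3 to 6 at 0, and at 3730 to 7150 CPM in mural-like nuclei. For each of these lists the sets overlapped. Other lists were higher in most libraries of set 2, again with overlap. The 7 astrocyte markers were at 411 to 669 CPM in set 1 and 488 to 827 CPM in set 2. The 6 oligodendrocyte precursor markers were at 66.9 to 117 against 98.2 to 368 CPM, and the 8 striatal projection neuron markers at 186 to 216 against 156 to 319 CPM. The 2 excitatory neuron markers were at 0 to 75.1 CPM, against 271 to 404 CPM in their own class, and the 9 ependymal markers at 1300 to 1655 CPM, against 1897 to 3974 CPM in theirs. The part of these in the Ttr difference was not tested.

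Enpp2 held at one level in all groups. Enpp2 measured 9208 and 7770 CPM in control 1 and 2, 8934 and 10712 in BCAS, 10376 and 9113 in TBI, and 9479 and 9142 in BCAS+TBI. The control, BCAS and TBI ranges overlapped, and the BCAS+TBI pair lay inside the BCAS and the TBI range. After thinning to 1000 UMIs it was seen in 100% of choroid plexus-like nuclei, in 9.75% of excitatory neuron-like nuclei and in 82.3% of oligodendrocyte-like nuclei.

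Kl varied more. Its level was 597 and 571 CPM in control 1 and 2, 535 and 603 in BCAS, 776 and 542 in TBI, and 712 and 352 in BCAS+TBI. The highest value was in TBI 1 and the lowest in BCAS+TBI 2, which is also the library where the fewest choroid plexus-like nuclei showed Kl after thinning (23.9% against 32.1% to 55.0% elsewhere). Both control libraries lay inside the range of the BCAS+TBI pair.

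Among the receptors, Htr2c measured 14656 and 13518 CPM in control 1 and 2, 11394 and 14570 in BCAS, 14880 and 14137 in TBI, and 15005 and 11763 in BCAS+TBI. The 2 lowest values were BCAS 1 and BCAS+TBI 2, both of set 1, and the partner library of each was among the 4 highest. Prlr measured 1058 and 857 CPM in control, 853 and 937 in BCAS, 1189 and 952 in TBI, and 810 and 1281 in BCAS+TBI. The BCAS+TBI pair alone spanned the values of all other libraries.

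Folr1 was at 439 and 218 CPM in control 1 and 2, 268 and 254 in BCAS, 394 and 216 in TBI, and 254 and 430 in BCAS+TBI. Its values by set were 383 ± 79.1 (SD, n = 4) in set 1 and 235 ± 21.5 (SD, n = 4) in set 2. These rest on 16 to 64 UMIs in a library. All 4 libraries of set 1 lay above all 4 of set 2.

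Of the transport genes, Slc4a5 measured 304 and 353 CPM in control 1 and 2, 368 and 454 in BCAS, 524 and 349 in TBI, and 336 and 313 in BCAS+TBI. The 2 BCAS libraries lay above both control and both BCAS+TBI libraries, and TBI spanned the range from 349 to 524. Clic6 measured 608 and 503 CPM in control, 987 and 508 in BCAS, 702 and 603 in TBI, and 900 and 606 in BCAS+TBI. Its high values, in BCAS 1 and BCAS+TBI 1, were not shared by the second library of either group.

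Aqp1 was near the limit of detection, with 30 UMIs in the 345 nuclei and 2 to 9 in a library. Its levels were 16.4 to 44.9 CPM, and 8.41% of choroid plexus-like nuclei showed it, against 0.123% of excitatory neuron-like nuclei. It did not pass the filter on low counts, so it has no test, and a difference between groups was not detectable at this depth.

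The transcription factor Otx2 was at 473 and 443 CPM in control 1 and 2, 535 and 498 in BCAS, 462 and 387 in TBI, and 548 and 548 in BCAS+TBI. The 2 libraries with both surgeries had the highest values, but within counting error of the others. Their exact Poisson intervals were 425 to 697 CPM in BCAS+TBI 1 and 414 to 711 CPM in BCAS+TBI 2. These overlapped the interval of every other library, from BCAS 1 (366 to 756 CPM) to TBI 2, the lowest (302 to 489 CPM). The order of the libraries is therefore not read as a response to surgery. The 2 TBI libraries were below both BCAS libraries, control 2 lay between the 2 TBI libraries, and control 1 lay above both.

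The design asks what each surgery does and whether BCAS changes the response to TBI. It was tested on UMIs summed over choroid plexus-like nuclei per library, in 4 contrasts: TBI averaged over BCAS, BCAS averaged over TBI, BCAS+TBI against TBI, and the interaction. All but Aqp1, 9 of the 10 genes, passed the filter on low counts. In none of the 4 contrasts was a member called by edgeR's quasi-likelihood test (0 of 9 each), and no gene at all was called among the 3882 tested in these nuclei (0%), with 86, 102, 54 and 61 genes at an unadjusted p under 0.05. The test of DESeq2 called no member and no gene in these nuclei either.

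With TBI, the log2 fold changes ran from -0.0026 for Otx2 to 0.20 for Prlr (SE 0.22, adjusted p = 1.00), and 8 of 9 were above 0. Their median was 0.07, beside 0.01 over all genes tested. With BCAS they ran from -0.19 for Kl (SE 0.24) to 0.27 for Clic6 (SE 0.25, adjusted p = 1.00), and 3 of 9 were above 0. The median was -0.08, beside -0.01 over all genes. Both contrasts use the same 8 libraries.

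BCAS+TBI against TBI gave values from -0.44 for Slc4a5 (SE 0.31) to 0.36 for Otx2 (SE 0.27), neither called (adjusted p = 1.00). The interaction gave -0.74 for Slc4a5 (SE 0.45) and 0.50 for Folr1 (SE 0.63), again with adjusted p = 1.00. Intervals of 2 SE to each side show what the design could not exclude. For Ttr with TBI they reach from -0.67 to 1.04, for Enpp2 from -0.29 to 0.42, and for Slc4a5 in the interaction from -1.64 to 0.16.

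**Figure D3:**
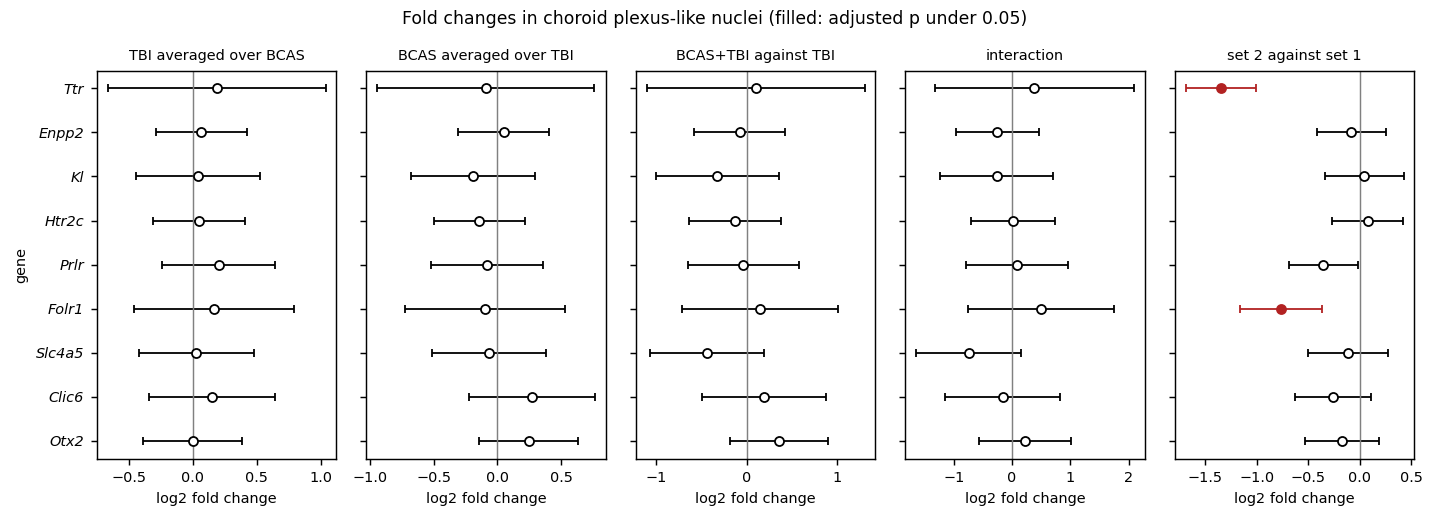
Log2 fold changes of the 9 tested genes in choroid plexus-like nuclei, with bars of 2 SE to each side, for the 4 surgery contrasts and for library set 2 against set 1. All intervals of the surgery contrasts cross 0, Ttr has the widest of them, and the filled points of Ttr (-1.35) and Folr1 (-0.77) mark the 2 calls of the set comparison.

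Taking the library set into the model narrowed these errors. The SE of Ttr with TBI went from 0.43 to 0.17, its fold change was 0.12, and again no member was called in any contrast. In that model 0.155% of the genes tested were called with TBI and 1.26% with BCAS, all of them lower with the surgery, and 0% in the other contrasts. DESeq2 with the same model called 0 genes in each of the 4 contrasts. Leaving out 1 library moved the edgeR count of 49 with BCAS to 0 without BCAS 2, to 7 to 9 without control 2, TBI 2 or BCAS+TBI 1, and to as many as 71 without control 1. The count of 6 with TBI moved to between 3 and 13, and that of 0 in BCAS+TBI against TBI to between 1 and 16. Slc4a5 had the smallest unadjusted p of the members in the interaction (log2 -0.76, SE 0.38, adjusted p = 0.999).

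The other plexus genes were read from a list of 49 in 6 roles, of which 32 passed the filter in choroid plexus-like nuclei. None of the 32 was called in the 4 contrasts. With TBI 19 of 32 were above 0 with a median log2 of 0.12, and with BCAS 20 of 32 with a median of 0.09. By role, with TBI, 7 of 11 genes of ion and water transport, 4 of 4 secreted factors, 4 of 4 transcription factors, 2 of 6 vitamin and anion transporters, 2 of 4 other epithelial genes and 0 of 3 junction genes were above 0, with no call. With BCAS the same roles had 6 of 11, 1 of 4, 3 of 4, 6 of 6, 4 of 4 and 0 of 3 above 0. With the library set in the model, 3 of 4 secreted factors were above 0 with TBI and 2 of 4 with BCAS. Genes with the 3 smallest p-values of the list in a contrast are given below, with adjusted p = 1.00 for each.

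With TBI these were Slco1c1 (thyroid hormone transport, log2 -0.43), Sostdc1 (a secreted inhibitor of BMP and Wnt signals, 1.01, SE 0.56) and Slc23a2 (vitamin C transport, 0.31). With BCAS they included Kcne2 (a potassium channel subunit, -0.50) and Calml4 (a calmodulin-like protein, 0.38). For BCAS+TBI against TBI they were Msx1 (a homeobox factor, 0.59), Car12 (a carbonic anhydrase, 0.37) and Sostdc1 (0.75), and for the interaction they included Msx1 (1.30) and Sostdc1 (2.06). Between the sets, 3 of the 32 were called, all lower in set 2. These were Cst3 (cystatin C, a secreted protease inhibitor, log2 -2.03), Sostdc1 (-1.46) and Kcnj13 (a potassium channel, -0.81). Cst3 was called under each alternative run for the set comparison, with values from -2.31 to -1.80. Sostdc1 was not called by DESeq2 (adjusted p = 0.251) or in edgeR's fits without TBI 1 (log2 -1.20, adjusted p = 0.125), TBI 2 (-1.19, 0.0906) or BCAS+TBI 2 (-1.33, 0.0652). Kcnj13 was not called by DESeq2 (adjusted p = 0.120), with doublets kept (log2 -0.59) or without BCAS 2 (-0.63, edgeR's adjusted p = 0.0579). Cst3 was at 283 to 304 CPM in the 4 libraries of set 1 and at 40.9 to 105 CPM in the 4 of set 2. Over all other nuclei Cst3 was at 170 CPM, against 7.79 CPM for Kcnj13 and 0.861 CPM for Sostdc1. In set 2 the choroid plexus-like nuclei thus held less Cst3 than the other nuclei did over all libraries.

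In the 6366 nuclei of the rule no gene was called in any contrast either (0% of 19544), and the signs of several members turned. With BCAS all 9 tested members were below 0 there, and with TBI all 9 were above 0, none of them called. Clic6 with BCAS was -0.36 there against 0.27 in choroid plexus-like nuclei, and Otx2 was -0.26 against 0.25. The choroid plexus-like nuclei made up 3.05% to 9.64% of the rule's nuclei in a library. Levels were lower there than in the plexus-like cluster, with Ttr at 53.9 to 260 CPM over libraries, Htr2c at 429 to 796, Enpp2 at 319 to 482, Prlr at 47.2 to 91.4, and each of the other members at no more than 25.8 CPM. With the library set in the model and DESeq2, Htr2c was called lower in the rule's nuclei with BCAS and in BCAS+TBI against TBI, beside 0.00512% and 0.0153% of all genes tested. The edgeR fit of the same model gave Htr2c log2 -0.42 (adjusted p = 0.912) and -0.54 (adjusted p = 0.658). Without TBI 1, that edgeR fit called Htr2c lower in both contrasts (log2 -0.46, adjusted p = 0.00435, and -0.62, adjusted p = 0.00900) and also Prlr (-0.44, adjusted p = 0.0472, and -0.67, adjusted p = 0.0434). In that fit 0.0537% and 0.337% of all genes tested were called lower, and the calls in both directions numbered 450 and 647 of 20478, where the fit of all 8 libraries called 0. The rule chose these nuclei by UMIs of the members other than Ttr, 3005 of them through Htr2c with Enpp2 alone. Tests of those members here therefore use the values that chose the nuclei, and no conclusion about their level is drawn. The part of this choice and of the mix of classes was not tested.

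Outside the plexus, all 10 genes were lower in each library of each other class than in any library's choroid plexus-like nuclei. What remained differed by gene. Counts were then set against what Ttr would predict if choroid plexus RNA were its only source, that is, the Ttr UMIs of a class in each library multiplied by the ratio of the gene to Ttr in that library's choroid plexus-like nuclei. The ratios below are descriptions with exact Poisson 95% intervals, which cover counting error only. A ratio of 1 is not a proven baseline. In excitatory neuron-like nuclei Folr1, Slc4a5, Otx2 and Clic6 were at 0.575, 0.337, 0.508 and 0.353 times the prediction. Htr2c, Enpp2, Prlr, Kl and Aqp1 were above it there. Whether background RNA keeps the ratios of choroid plexus-like nuclei was not tested.

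**Figure D4:**
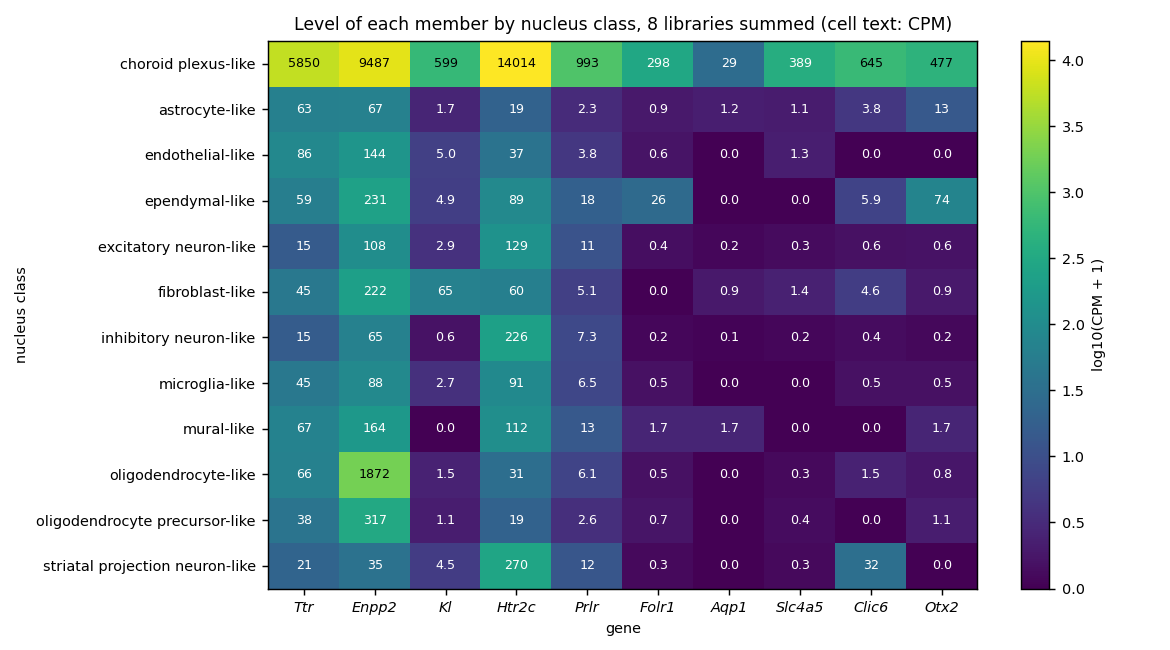
Rows are nucleus classes, columns the 10 genes, and each cell gives CPM over the 8 libraries, coloured by log10(CPM + 1); values should be read down a column, since genes differ in length. Every column is highest in the choroid plexus-like row. Below that row, the Enpp2 column is highest in oligodendrocyte-like nuclei (1872) and the Htr2c column in striatal projection neuron-like nuclei (270).

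Enpp2 measured 1872 CPM in oligodendrocyte-like nuclei (1732 to 2170 over libraries), which is 19.7 times the count predicted from Ttr (19.3 to 20.2). It was 317 CPM in oligodendrocyte precursor-like nuclei (266 to 357), 231 in ependymal-like (112 to 339) and 222 in fibroblast-like nuclei (130 to 392). The ranges of these last 3 classes overlap, and all lie below the oligodendrocyte-like range. In excitatory neuron-like nuclei it was 108 CPM, 4.71 times the prediction (4.64 to 4.79).

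Htr2c measured 270 CPM in striatal projection neuron-like nuclei (235 to 314), 226 in inhibitory neuron-like nuclei (189 to 254) and 129 in excitatory neuron-like nuclei (84.7 to 139). The first 2 ranges overlap. These levels were 6.11, 7.01 and 3.88 times the prediction. In astrocyte-like and endothelial-like nuclei, at 19.3 and 36.5 CPM, Htr2c was at 0.158 (0.132 to 0.187) and 0.191 (0.145 to 0.247) times the prediction, below it. Prlr was at 10.6 CPM in excitatory neuron-like nuclei (7.68 to 13.7), or 4.42 times the prediction (4.19 to 4.66).

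Kl measured 64.9 CPM in fibroblast-like nuclei (49.2 to 94.1), 13.3 times the prediction (11.2 to 15.7), and no other class outside the plexus passed 5.04 CPM. Clic6 measured 32.3 CPM in striatal projection neuron-like nuclei (18.7 to 46.8), 16.1 times the prediction (14.1 to 18.4). In inhibitory neuron-like nuclei it was 0.367 CPM. Slc4a5 passed 1.39 CPM in no other class, and Aqp1 had at most 23 UMIs in any, those being in the 17942 excitatory neuron-like nuclei.

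In ependymal-like nuclei, Otx2 and Folr1 were furthest above the count predicted from Ttr. Otx2 measured 74.2 CPM in these 324 nuclei, 15.2 times the prediction (12.02 to 19.1), with UMIs in 7 of 8 libraries. Folr1 measured 26.4 CPM there, 8.63 times the prediction (5.68 to 12.6), also in 7 of 8 libraries. Enpp2 was at 2.35 times the prediction (2.06 to 2.66), with UMIs in all 8 libraries, and Prlr at 1.71 times (1.01 to 2.70), with 18 UMIs in 3 libraries. Astrocyte-like nuclei held Otx2 at 13.1 CPM (7.59 to 19.3), 3.03 times the prediction (2.43 to 3.74). Slc4a5 had 0 UMIs in ependymal-like nuclei, where 4.15 were predicted. This was not particular to them, since its count was at most 0.431 times the prediction in any class outside the plexus. The library without Otx2 or Folr1 UMIs was BCAS+TBI 2, with 15 ependymal-like nuclei.

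Ttr was present at low level in all classes, between 14.5 CPM in excitatory neuron-like and 85.7 CPM in endothelial-like nuclei. In the 10 classes outside the plexus other than ependymal-like, the share of nuclei with a Ttr UMI was 7.55% to 10.4%, and it was 13.0% in ependymal-like nuclei. Its CPM followed the library set as it did in the plexus, with means 1.88 to 6.40 times higher in set 1. The sets did not overlap in 8 of 11 classes. In astrocyte-like nuclei the 4 libraries of set 1 held 89.3 to 115 CPM and the 4 of set 2 held 7.33 to 38.4 CPM.

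**Figure D5:**
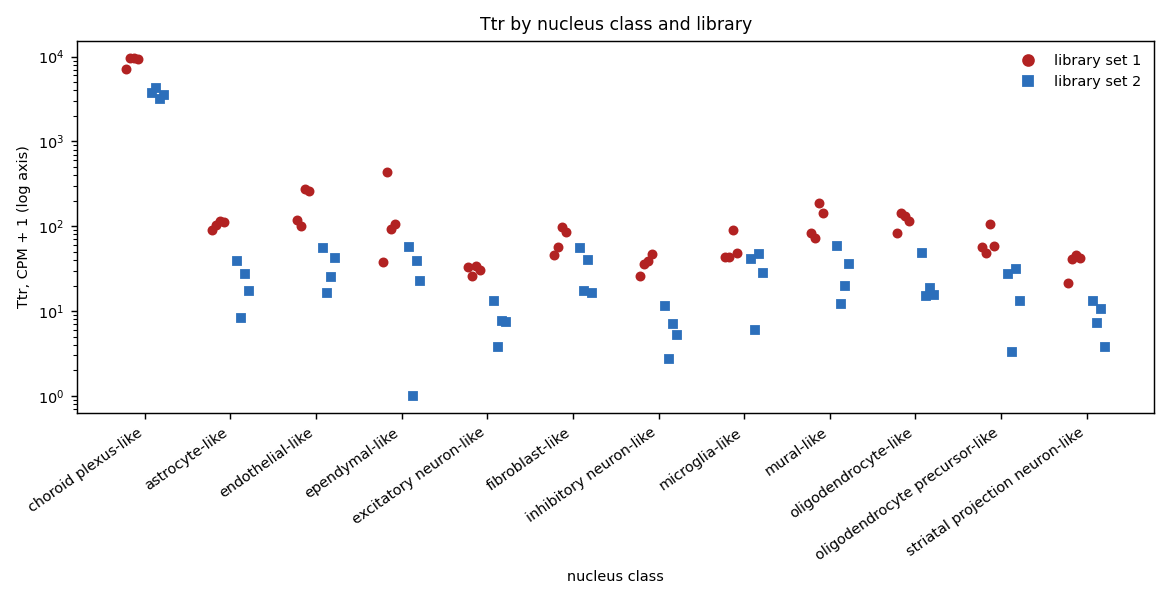
Ttr in CPM plus 1 on a log axis, 1 point per library, by class and library set. Set 1 lies above set 2 in the choroid plexus-like nuclei and without overlap in 8 of the other 11 classes, and the 2 sets each contain all 4 groups.

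The background of Ttr was also compared between surgeries. The levels with and without each surgery were compared in the 11 classes, 22 exact two-sided permutation tests in all, and none passed the threshold. The smallest p was 0.314, with an adjusted p of 1.00, where the design allows 0.0286. In oligodendrocyte-like nuclei, as an example, the TBI libraries held 130 and 17.9 CPM and the control libraries 114 and 14.5 CPM, so that both groups spanned nearly the same range. These tests take no account of the library set. With assignments exchanged only within sets (36 of them), the smallest exact permutation p was 0.222 (adjusted p = 0.978), where 0.0556 is the smallest that can be reached. Side by side within each set, the BCAS+TBI library was below the TBI library in both sets in 9 of 11 classes, oligodendrocyte-like and ependymal-like nuclei being the exceptions. In oligodendrocyte precursor-like nuclei these values were 47.4 against 104 CPM in set 1 and 2.31 against 30.2 CPM in set 2. TBI was above control in both sets in 7 of 11 classes. BCAS was above control in both sets in 1 of 11, with opposite signs in the other 10. BCAS+TBI was below BCAS in both sets in 5 of 11, with opposite signs in the other 6. With 1 library of a group in each set, these pairs have no replicate. The classes of a library share its background, so the counts of classes are not counts of separate observations.

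In the other classes, 36 pairs of a class and a member besides the choroid plexus-like ones were tested for the 4 contrasts, and 0 of 36 were called in each, beside 0% of the 92291 class-gene pairs. The smallest adjusted p, with the library set in the model, was 0.257 for Enpp2 in striatal projection neuron-like nuclei in the interaction (log2 -2.07, SE 0.43).

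Genes outside the 10 with the most similar pattern were ranked by Pearson correlation of log2(CPM + 10) with the mean of the members over 96 points (12 classes in 8 libraries), among 2275 genes with at least 100 UMIs in choroid plexus-like nuclei. The 5 closest were Cldn2 (a tight junction claudin, r = 0.980), Tmem72 (r = 0.978), Slc16a8 (a lactate transporter, r = 0.977), 2900040C04Rik (r = 0.975) and 4933429O19Rik (r = 0.975). Cldn2 and Tmem72 are also among the 12 markers that named the cluster, so their high rank follows in part from the naming. Choroid plexus-like nuclei give only 8 of the 96 points. Classes of a library share its depth and its background, so the points are not independent. Cldn2 was at 115 to 251 CPM in choroid plexus-like nuclei and at no more than 1.95 CPM in any other class.

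Otx2 was highest in choroid plexus-like nuclei and was also seen in 19.4% of ependymal-like and 2.46% of astrocyte-like nuclei. The upstream windows of the members were searched for TAATCC, the core of the site that OTX proteins bind, on both strands (reverse complement GGATTA). RefSeq promoters of build GRCm38.p6 were matched for 6 of the 10 genes, with 11 start sites, and the 250 bases before each start were read. There was 1 match, in 1 of the 4 Otx2 windows, while 6.25% of 32851 windows of the same length hold the motif. The Otx2 window, chr14:48665110-48665359 on the minus strand, is shown 5′ to 3′ with the match in capitals, 211 bases before the start.
Otx2: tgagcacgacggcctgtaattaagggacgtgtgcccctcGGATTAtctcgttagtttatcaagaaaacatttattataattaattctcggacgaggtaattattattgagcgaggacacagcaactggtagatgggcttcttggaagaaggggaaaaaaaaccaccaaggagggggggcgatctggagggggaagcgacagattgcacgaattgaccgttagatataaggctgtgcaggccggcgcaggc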

How the data were processed

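Each deposited matrix holds counts of UMIs per gene and barcode, whole numbers without normalization, and the file headers name Cell Ranger 7.0.0 as the authors' software. The submitters' processing notes name GRCm38, mm10 and Seurat, and the annotation release is not given in the sources used here. The members and gene lists were chosen with earlier results of these data known.

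A barcode counted as a nucleus with 500 or more UMIs, 300 or more genes and a mitochondrial share no higher than 5% (4922 of 53390 failed). Scrublet's own threshold marked 12.8% of control 1 but no more than 0.0525% of any other library, so the top 6% of scores per library (2908 nuclei) were removed. Clusters (scanpy 1.11.5, igraph 0.11.9) used 3000 variable genes without the members, 30 components, 15 neighbours and Leiden at resolution 1, with no batch integration, and the 37 clusters were named from fixed markers where these allowed it. A name needed 3 markers at least 2 fold higher than in other clusters and seen in 10% of nuclei, and 7 clusters (11528 nuclei) stayed unnamed. Classes are called "-like" since their names rest on markers alone.

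Counts were summed per library and class. A class was tested if each library held 20 or more of its nuclei, which left out ependymal-like nuclei (15 in BCAS+TBI 2). edgeR 4.0.16 in R 4.3.3 fitted the 4 groups over 8 libraries (TMM factors, genes kept by filterByExpr at minimum count 10, and the quasi-likelihood test), and p-values were adjusted over the 92291 class-gene pairs of a contrast at 0.05. Group levels rest on 2 libraries and 27 to 60 choroid plexus-like nuclei each. Alternatives were RLE normalization, DESeq2 1.42.0, other count filters, a replicate block, the library set as a block, other nucleus filters and leaving out each library. The set comparison and the DESeq2 fit of the set block were chosen after seeing the data. Scripts were tested on simulated data.

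All members are named. Of the list of other plexus genes, those past the threshold or else the 3 with the smallest p-value per contrast are named (1 of these genes is not reported here), and of genes with at least 100 UMIs the 5 closest in pattern to the members. A planned correlation of Ttr background with the plexus share of UMIs is not given, since the libraries form 2 separate sets of 4.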

Additional observations from a re-analysis of the deposited data

How the results depend on the processing

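Precision was limited: each group had 2 libraries and 27 to 60 choroid plexus-like nuclei in a library, and Aqp1 had 30 UMIs in all. In the surgery contrasts no member was called by edgeR under any alternative in choroid plexus-like nuclei, and the turns of sign below are of uncalled log2 values. Where a value turned or a count moved, the cause was not tested.

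Replicate numbers are shared between groups in the labels. In choroid plexus-like nuclei, same-numbered libraries deviated together among control, BCAS and TBI (correlations 0.294 to 0.536). They deviated in opposite directions where BCAS+TBI was one of the pair (-0.433 to -0.28). These signs match the library sets, in which BCAS+TBI 2 stands with replicate 1 of the other groups. The replicate number itself was therefore not taken as a pairing. With the replicate number as a block, 0 genes were called in any contrast, in either set of nuclei. Under this block Kl with TBI was -0.016 and Ttr with BCAS was 0.12, both of the other sign than without it.

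The difference in the share of choroid plexus nuclei, in percentage points, turned when the nuclei were chosen by 2 members (-1.505 with TBI, 0.435 with BCAS) or by 3 or more (-0.446 and 0.614). Leaving out 1 library gave -0.151 to 0.0837 for BCAS. Numbers of called genes, 0 in the main fits, moved without a filter on low counts. In choroid plexus-like nuclei they were 4 with TBI and 25 with BCAS, and in the rule's nuclei 13, 27 and 2 (TBI, BCAS+TBI against TBI, interaction) and 37 with BCAS. With the library set as a block, 6 and 49 genes were called in choroid plexus-like nuclei with TBI and BCAS (3 to 13 and 0 to 71 when 1 library was left out, and 0 and 0 with DESeq2). In the rule's nuclei DESeq2 called 1 gene with BCAS, and with the set block 3, 5, 19 and 1 genes in the 4 contrasts. Htr2c was the 1 member among these, with BCAS (adjusted p = 0.00698) and in BCAS+TBI against TBI (adjusted p = 0.0297). The rule chose these nuclei by UMIs of Htr2c among other genes.

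Otx2 with TBI turned to 0.025 without the filter, 0.0031 at minimum count 30, 0.081 with doublets kept and 0.28 in the rule's nuclei. Slc4a5 with TBI was -0.0089, and Ttr with BCAS 0.0087 (0.0023 with DESeq2), under the set block. With doublets kept, Enpp2 with BCAS was -0.038, Prlr in BCAS+TBI against TBI 0.015 (0.00067 at minimum count 30) and Clic6 in the interaction 0.038. Htr2c in the interaction was -0.0081 without the filter. In the rule's nuclei, Otx2, Enpp2 and Clic6 with BCAS were -0.26, -0.059 and -0.36. Ttr, Folr1, Otx2 and Clic6 in BCAS+TBI against TBI were -0.45, -0.46, -0.078 and -0.53 there, and Htr2c and Prlr in the interaction -0.26 and -0.22. In the set comparison, Folr1 was -0.76 with DESeq2 and -0.67 with doublets kept.

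Leaving out 1 library gave ranges across 0 as follows. With TBI they were -0.33 to 0.64 for Ttr, -0.038 to 0.16 for Htr2c, -0.081 to 0.45 for Folr1, -0.24 to 0.23 for Kl, -0.13 to 0.18 for Slc4a5, -0.065 to 0.082 for Otx2, -0.054 to 0.40 for Clic6 and -0.0026 to 0.36 for Prlr. With BCAS they were -0.47 to 0.44 for Ttr, -0.32 to 0.21 for Folr1, -0.45 to 0.015 for Kl, -0.22 to 0.11 for Slc4a5, -0.035 to 0.14 for Enpp2 and -0.27 to 0.095 for Prlr. In BCAS+TBI against TBI they were -0.65 to 1.20 for Ttr, -0.27 to 0.010 for Htr2c, -0.30 to 0.69 for Folr1, -0.87 to 0.073 for Kl, -0.20 to 0.062 for Enpp2, -0.069 to 0.43 for Clic6, -0.44 to 0.30 for Prlr and -0.22 to 2.11 for Sostdc1. In the interaction they were -0.49 to 1.52 for Ttr, -0.15 to 0.24 for Htr2c, -0.079 to 1.06 for Folr1, -0.82 to 0.12 for Kl, -0.58 to 0.35 for Clic6 and -0.33 to 0.40 for Prlr. The range for Folr1 between the sets was -0.93 to -0.64, and the call was lost in 5 of the 8 fits.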

Other observations

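Some members were carried by single clusters outside the choroid plexus more strongly than their class shows, and these values stand as descriptions of clusters chosen for being highest. Otx2 measured 34.4 CPM in 1 astrocyte-like cluster of 998 nuclei led by Slc6a11, Itih3 and Agt, with 23.8 to 48.6 CPM in every library. It measured 40.4 CPM in an excitatory neuron-like cluster of 239 nuclei led by D130079A08Rik, D130009I18Rik and Nwd2, where Htr2c reached 777 CPM, its highest level outside the plexus, with 356 to 1393 CPM over libraries. Kl measured 92.9 CPM in a fibroblast-like cluster of 713 nuclei led by Ranbp3l, Slc6a13 and Slc7a11 (72.6 to 125 CPM over libraries). Enpp2 measured 943 CPM in an unnamed cluster of 71 nuclei led by Vcan, Gpr17 and Bcas1, genes of oligodendrocyte precursors on their way to myelinating cells. Prlr measured 63.6 CPM in an unnamed cluster of 4181 nuclei (53.7 to 83.7 CPM over libraries) in which Htr2c was 628 CPM.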
